A study of Glycine max with 3 samples.

Results

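The miR171 family was examined in leaves of vegetable soybean (Glycine max), a soybean eaten as immature seed. Its members were all distinct mature sequences whose name given by the authors holds the miR171 number, from either arm of the hairpin, which gave 20 of the 381 sequences in the small RNA tables. Entries of the degradome table with the same number gave a further set of 11 of 898 pairs of a miRNA and a transcript; the family was taken up because those pairs lead to GRAS genes. The plants were of the cultivar Taiwan 75 at the stage of 1 true leaf, and no group carried a transgene or mutation. The control library came from plants grown at a day temperature of 25 °C and a night temperature of 17 °C, and the chilled library from plants moved to 4 °C for 24 h. Each of these 2 libraries pooled 3 replicates, so no spread between replicates is known and no test of chilling could be made. A degradome library, which reads the 5′ ends left when messenger RNAs are cut, was made from chilled and control leaves mixed. Its label gives the tissue as leaf and the stage as 10 days after pollination, at odds with the seedling stage of the small RNA libraries.

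miR171 is one of the oldest miRNA families of land plants. In Arabidopsis it pairs almost perfectly with messenger RNAs of the HAIRY MERISTEM (HAM) genes, also called SCARECROW-LIKE, a branch of the GRAS family of transcription regulators, and guides an Argonaute protein to cut them opposite bases 10 and 11 of the miRNA. HAM proteins keep stem cells of the shoot meristem undifferentiated, and in Arabidopsis they also bear on chlorophyll synthesis in leaves. The strand that pairs with GRAS messages lies in the 3′ arm of the hairpin. The 5′ arm gives the strand that is usually degraded, called the passenger or star strand.

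The 3′ arm gave 8 of the 20 sequences, and these are shown first because they carry the part that pairs with GRAS messages. Sequences run 5′ to 3′ in the DNA letters of the deposited tables, with the seed, bases 2 to 8, in capitals.
miR171m: tTGAGCCGcgtcaatatctca
miR171n: tTGAGCCGcgtcaatatctta
miR171k-3p: tTGAGCCGcgccaatatcact
MIR171d-p3: tTGAGTCGcgtcaatatctca
miR171b-3p: cGAGCCGAatcaatatcactc
miR171r: cGAGCCGAatcaataccactc
miR171e: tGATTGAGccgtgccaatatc
MIR171a-p3: cATTGAGCcgtgccaatatca
A stretch reading GAGCC was present in 7 of these 8 sequences and in 6 of the 361 sequences of other families (1.66%), searched as written and on the given strand. The longer GAGCCG was present in the same number of these sequences, 7 of 8, and in none of the 361 others. Neither stretch was present in any of the 12 miR171 sequences of the 5′ arm. These counts describe sequences already grouped by family name and test nothing. The stretch sat at base 3 of miR171m, miR171n and miR171k-3p, at base 2 of miR171b-3p and miR171r, at base 6 of miR171e and at base 5 of MIR171a-p3. These 7 sequences thus hold the same stretch at different distances from their 5′ end, and they fall into different seeds: TGAGCCG was shared by miR171m, miR171n and miR171k-3p, and GAGCCGA by miR171b-3p and miR171r. No miR171 seed of either arm occurred in a sequence of another family.

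Near-identical members differed by single bases. Counted from the 5′ end, miR171n differed from miR171m by C20T alone. MIR171d-p3 differed from miR171m by C6T, which falls in the seed and breaks the GAGCC stretch. MIR171d-p3 also differed from the hairpin listed for it at base 9, with C in the sequence and T in the hairpin. miR171k-3p differed from miR171m by T11C, T19A and A21T, and miR171r from miR171b-3p by T16C. Reads with a sequencing error at such a base can be counted for the other member, so values of these neighbours are uncertain to that extent.

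The 5′ arm gave the other 12 sequences. The 5 of them with enough reads to be described singly are shown because 2 of the 3 sequences called higher in the chilled library were among them.
MIR171o-p5: aGATATTGgtacggttcaatc
MIR171b-p5: cGTGATATtggtacggctcatc
MIR171e-p5: tGTTGGACggttcaatcaaa
miR171j-5p: tATTGGCCtggttcactcaga
MIR171i-p5: aTATTGGTccggttcaataag
MIR171o-p5 shared its seed, GATATTG, with miR171c-5p, and the seeds of the other 5′-arm sequences were each found once. The length was 21 nt in 18 of the 20 sequences of both arms. MIR171b-p5 had 22 nt and MIR171e-p5 had 20.

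The 20 sequences filled 37 entries at 20 hairpins on 12 chromosomes. An exact match to the listed hairpin was found for 34 entries. The other 3 were MIR171d-p3, MIR171p-p5 and rco-MIR171a-p3, a chromosome 6 entry of the miR171e sequence. Both arms were listed for 17 hairpins and the 3′ arm alone for 3. The hairpins of 4 main members are given because their position and their arms matter to the values that follow. Capitals mark the listed mature sequences, the 5′ arm first; coordinates are as deposited and count from 1, and their genome build is not named in the sources used here.
miR171b hairpin, chr4:50116133-50116224, plus strand: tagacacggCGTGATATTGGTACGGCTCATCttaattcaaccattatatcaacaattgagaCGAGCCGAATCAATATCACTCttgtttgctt
miR171r hairpin, chr4:50116446-50116547, plus strand: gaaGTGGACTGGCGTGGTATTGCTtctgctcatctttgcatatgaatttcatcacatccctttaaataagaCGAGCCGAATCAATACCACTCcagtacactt
miR171m hairpin, chr12:8432426-8432558, plus strand: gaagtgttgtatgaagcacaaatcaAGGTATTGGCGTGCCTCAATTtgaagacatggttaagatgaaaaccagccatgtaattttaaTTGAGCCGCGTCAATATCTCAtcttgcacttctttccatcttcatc
miR171n hairpin, chr12:35463985-35464118, plus strand: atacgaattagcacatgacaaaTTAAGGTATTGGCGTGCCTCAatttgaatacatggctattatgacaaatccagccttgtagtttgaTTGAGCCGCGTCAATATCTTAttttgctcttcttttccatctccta
The miR171b and miR171r hairpins lay on the same strand of chromosome 4 with 221 bases between them. A matching pair lay on the minus strand of chromosome 6, with the hairpin that gives the miR171r sequence at chr6:10887673-10887774, the one that gives miR171b-3p at chr6:10887944-10888094, and 169 bases between them. The order along the strand was the same in both pairs. Identity between the copies was 97.8% for the miR171b hairpins and 95.1% for the miR171r hairpins.

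Other hairpins also came in near-identical pairs. The hairpins of miR171m on chromosomes 6 and 12 were 94.9% identical, those of miR171n on chromosomes 12 and 13 91.6%, and those of MIR171o and MIR171f on chromosomes 13 and 15 96.7%. Both copies in each of these pairs give the same 3′-arm sequence, so reads of that arm cannot be assigned to one copy. The miR171n copies differ in the 5′-arm strand listed for them, MIR171n-p5 on chromosome 12 and MIR171p-p5 on chromosome 13. The miR171 hairpins had a median length of 103 nt, a median GC content of 39.15% and a median folding energy of -42.7 in the authors' units, against 119 nt, 41.6% and -50.05 for the 324 other hairpins of the known miRNA table. The most stable was that of miR171j at -58.9 and the least stable that of MIR171d at -28.5.

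The family was a small part of the leaf profile. The control table summed to 3856902 reads and the chilled table to 5347700, with 1 entry per sequence, and miR171 took 0.00526% and 0.00489% of them. It ranked 45 of 136 families by mean normalised reads. Reads were scaled between the libraries with edgeR's TMM method. A ratio is the log2 ratio of chilled to control normalised reads with a pseudocount of 1 on each, and its 95% interval covers counting error only, as do the floors of 3 reads that a count of 0 allows. The rule of size for a call, higher or lower, was a ratio of 1 or more in either direction, in a sequence that reached 10 normalised reads in the control or the chilled library. Above that minimum were 9 of the 20 sequences.

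**Figure D1:**
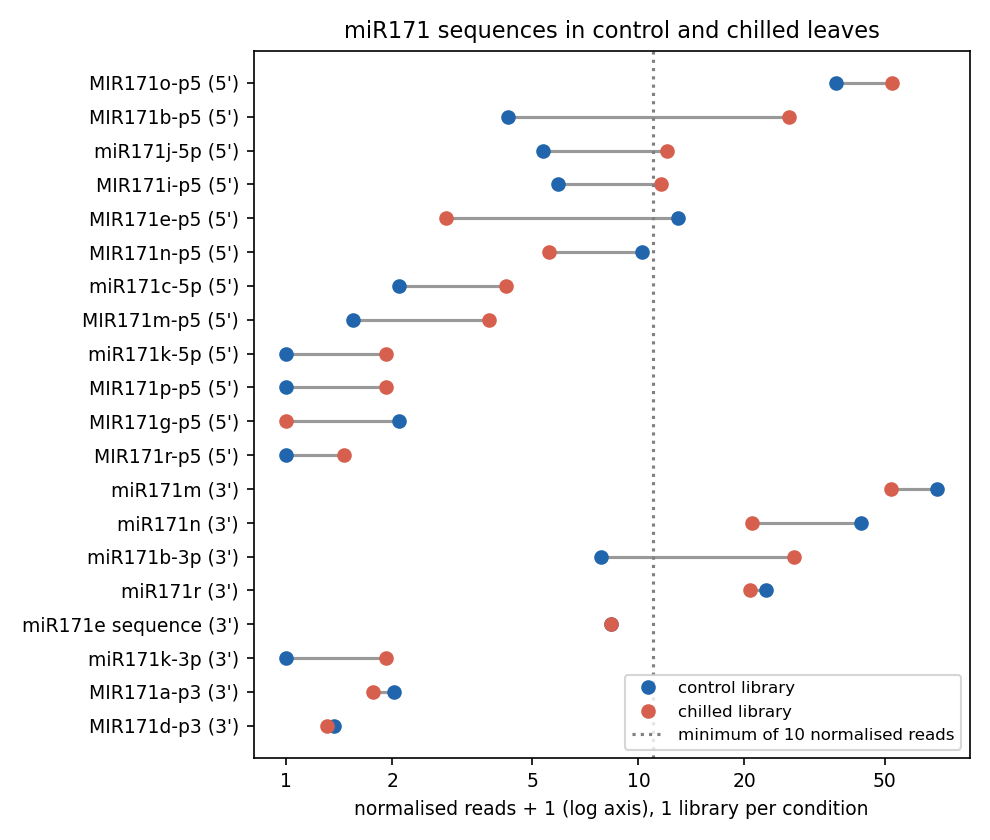
Normalised reads plus 1, on a log axis, of each of the 20 miR171 sequences in the control (blue) and chilled (red) library, with the hairpin arm in brackets and 1 library per condition. The 9 sequences with a point past the dotted line of 10 normalised reads are described singly, and both miR171b sequences lie far to the right in the chilled library.

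In the control library the most abundant member was miR171m with 63.8 reads, followed by miR171n with 38.5, MIR171o-p5 with 32.5, miR171r with 20.25 and MIR171e-p5 with 11. In that order the step from miR171m to miR171n exceeded counting error, and none of the steps further down did among the first 10. In the chilled library MIR171o-p5 with 56 reads and miR171m with 55.6 stood level at the top. The step from miR171m to the next, miR171b-3p with 29 reads, exceeded counting error; the later ones, through MIR171b-p5 with 28, miR171n with 21.75 and miR171r with 21.5, did not. MIR171b-p5, outside the first 10 in the control library, ranked 4 in the chilled one.

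Of the 9 sequences above the minimum, 3 were at least 2-fold higher in the chilled library, against 14.1% of all 213 sequences tested, and 2 were at least 2-fold lower, against 16.4%. The 3 higher were MIR171b-p5, miR171b-3p and miR171j-5p, the 2 lower MIR171e-p5 and miR171n. In 4 of these 5 the interval lay wholly off 0. The balance depends on the scaling. With equal table totals 2 miR171 sequences were higher and 3 lower, among 19 higher and 52 lower of all 214 tested. With unscaled reads 4 were higher and 1 lower, among 47 and 25 of 218. The median ratio of the 9 was 0.53, against 0.06 for all tested. The minimum itself set the direction of some of these ratios. All 3 sequences called higher, and MIR171i-p5, passed it in the chilled library alone, and MIR171e-p5 in the control library alone. With 9 sequences, several of which share a hairpin, these shares are a description and call nothing particular to the family.

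**Figure D2:**
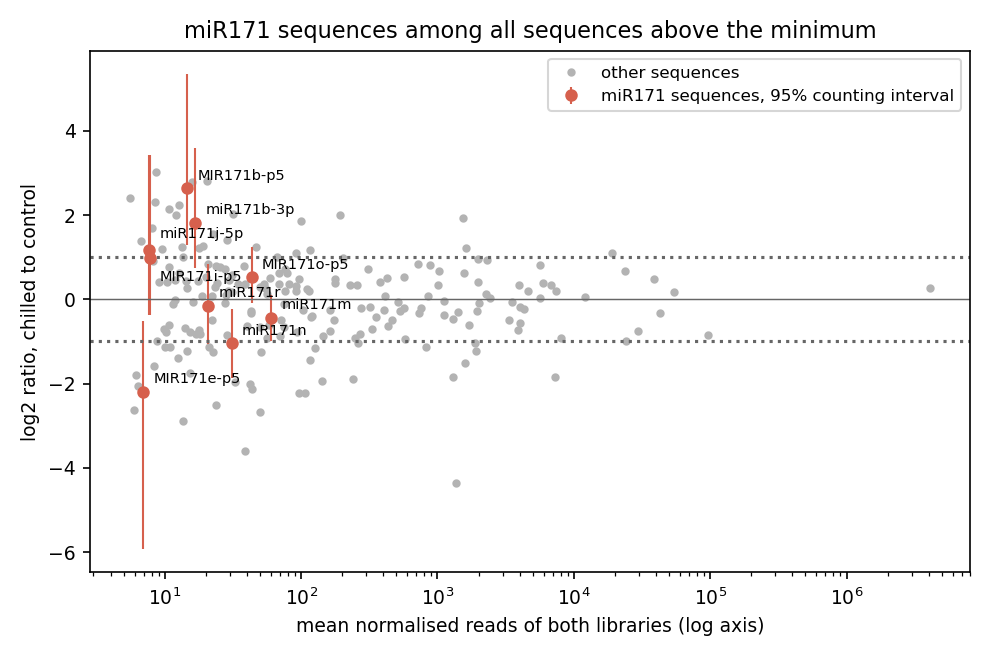
Log2 ratio of chilled to control normalised reads against the mean of both libraries (log axis) for the 213 sequences above the minimum; red points are the 9 miR171 sequences with their 95% counting intervals, and dotted lines mark a ratio of 1 either way. The miR171 points lie at the low end of abundance, from 2.65 for MIR171b-p5 to -2.19 for MIR171e-p5.

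Both arms of the miR171b hairpin were higher in the chilled library. The 3′-arm strand, miR171b-3p, had 6.25 control and 29 chilled reads, a ratio of 1.82 (0.73 to 3.59). Its 5′-arm partner, MIR171b-p5, had 3 control and 28 chilled reads, a ratio of 2.65 (1.28 to 5.34). The strands stood level in the chilled library. In the control library the 5′-arm strand had 3 reads against 6.25, but no interval was taken for that step. With so few reads it does not show a different balance of the arms. Both were called under each scaling tried. The same pair of sequences is listed for the hairpin on chromosome 6, so which copy they came from cannot be told.

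The neighbouring miR171r hairpin did not show that pattern. miR171r had 20.25 control and 21.5 chilled reads, a ratio of -0.15 (-1.05 to 0.84), which passed to the other side of 0 with unscaled reads and with a table total that leaves out miR3522, the most abundant miRNA. Its 5′-arm strand had 0 control reads and 0.5 chilled reads. Set directly against each other, miR171b-3p was higher relative to miR171r in the chilled than in the control library by 2.11 on the log2 scale (0.46 to 3.95), although the strands share every base but 1. Relative to miR171m the same difference was 2.45 (1.03 to 4.11). These contrasts were picked after their values were seen.

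Of the 3 sequences with GAGCC at base 3, miR171n was called lower in the chilled library. It had 38.5 control and 21.75 chilled reads, a ratio of -1.03 (-1.86 to -0.24), just past the rule. miR171m had 63.8 control and 55.6 chilled reads, a ratio of -0.44 (-0.98 to 0.10), and was not called, and miR171k-3p had 0 control reads and 1 chilled read. The 5′-arm strand of the miR171n hairpin on chromosome 12, MIR171n-p5, stayed under the minimum with 8.5 control and 5 chilled reads. Its interval, -2.88 to 0.87, spans 0. On chromosome 13 the other hairpin listed for miR171n has MIR171p-p5 in its 5′ arm, with 0 control reads and 1 chilled read. The 5′-arm strands thus settle no direction for these hairpins. The sequences with the stretch at base 3, miR171m, miR171n and miR171k-3p, summed to 102.33 control and 78.3 chilled reads, a ratio of -0.62 (-1.08 to -0.19). Those with the stretch at base 2, miR171b-3p and miR171r, summed to 26.5 and 50.5 reads, a ratio of 0.67 (-0.01 to 1.44). The miR171e sequence, with the stretch at base 6, is listed at 9 hairpins under several names. The entry with most reads, named mtr-miR171d and on chromosome 7, stood at 6.74 and 8.04 reads, a ratio of 0.01 (-1.71 to 1.64) and under the minimum; the 4 entries named miR171e stood at 3.79 and 7.46 reads.

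Among the other 5′-arm strands the libraries differed in both directions. MIR171e-p5, from a hairpin on chromosome 5, had 11 control and 2 chilled reads, a ratio of -2.19 (-5.92 to -0.51). miR171j-5p, from chromosome 2, had 4 control and 12 chilled reads, a ratio of 1.17 (-0.38 to 3.43), called by size although its interval spans 0. Both hairpins list miR171e in their 3′ arm, there with 3.79 control and 7.46 chilled reads, a ratio of 0.61 (-1.42 to 2.78) and under the minimum. MIR171i-p5 fell just short of the rule with 4.5 control and 11.5 chilled reads, a ratio of 0.97 (-0.38 to 3.43).

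MIR171o-p5 was the most abundant 5′-arm strand and depended on which entry was read. It had 32.5 control and 56 chilled reads, a ratio of 0.53 (-0.09 to 1.24). The same sequence is also listed as MIR171f-p5, for the near-identical hairpin on chromosome 15, with 14.5 control and 8 chilled reads, a ratio of -1.01. The entries of this 1 sequence went opposite ways, and their sum was 47 and 64 reads. The sources used here do not say why the tables give it different reads.

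The remaining 10 sequences beside miR171e were all under the minimum. MIR171n-p5 had the most reads of them, 8.5, and 8 sequences had at most 3 reads in each library, so no fold is given for these. Among them were miR171k-3p, with 0 control reads and 1 chilled read, and MIR171d-p3, with 0.333 reads in each. These were the sequences that the degradome table names for this family.

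Summed over all 20 sequences, the family was level between the libraries, at 202.85 control and 261.54 chilled reads and a ratio of 0.12 (-0.15 to 0.39). That sum turned to -0.10 when the table totals were made equal and to -0.17 without the miR171b sequences. The arms differed. The 3′ arm held 136.85 and 138.04 reads, a ratio of -0.23 (-0.59 to 0.12), which turned to 0.01 with unscaled reads. The 5′ arm held 66 and 123.5 reads, a ratio of 0.65 (0.22 to 1.12), and stayed above 0 under each alternative tried, from 0.35 without the miR171b sequences to 0.89 with unscaled reads.

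The 5′ arm thus took 32.5% of the miR171 reads in the control library (95% Wilson interval 26.4 to 39.2) and 47.2% in the chilled library (41.4 to 53.4). The difference between the arms' ratios was 0.90 (0.33 to 1.48), a value that no scaling of the libraries can move. The arm shares and this difference do depend on the entries taken, for MIR171o-p5 and for the miR171e sequence of the 3′ arm. With the MIR171f-p5 entry in place of MIR171o-p5 the ratio of the 5′ arm was 0.40 in place of 0.65. The miR171e sequence was counted at 6.74 control and 8.04 chilled reads, while its 9 entries sum to 46.7 and 68.2. With entries summed for every sequence the ratio was 0.71 for the 5′ arm and -0.16 for the 3′ arm. The arm shares and their intervals were not recomputed with summed entries. Of the 5 strands of the 5′ arm above the minimum 4 had a ratio above 0, and of the 4 strands of the 3′ arm 3 had one below 0. The minimum fixed part of these counts. MIR171b-p5, miR171j-5p, MIR171i-p5 and miR171b-3p reached it in the chilled library alone, so their ratios had to lie above 0. MIR171e-p5 reached it in the control library alone, so its ratio had to lie below 0. The share of the 5′ arm was also taken in other families with one class of transcription factor as textbook targets. It went from 25.9% to 22.7% in miR166 and from 6.05% to 6.48% in miR160. In miR156 it went from 66.5% to 44.6%, and in miR396 from 9.73% to 3.96%. Which arm pairs with the targets was not determined for these families, so their 5′ arm need not be the passenger arm. In miR171 that name follows the pairing with GRAS messages and not the reads. At the MIR171o hairpin on chromosome 13 the 5′ arm was listed with 32.5 control and 56 chilled reads, the 3′ arm with 6.74 and 7.71. At the miR171m hairpin on chromosome 12 the 5′ arm was listed with 0.5 and 3 reads, the 3′ arm with 63.8 and 55.6.

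**Figure D3:**
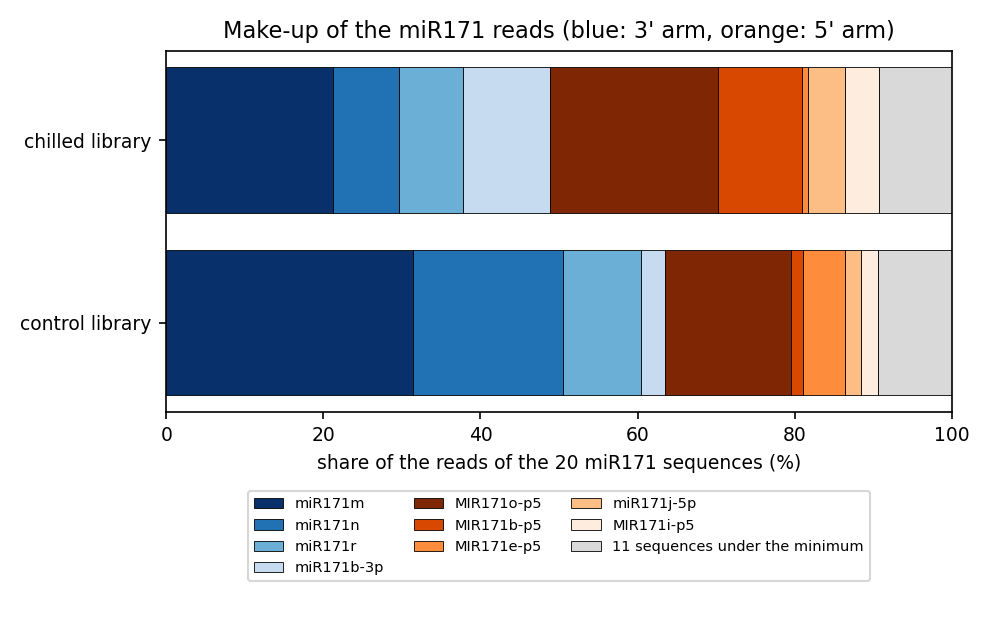
Share of the reads of the 20 miR171 sequences taken by each sequence above the minimum, in percent, per library; blue marks the 3′ arm, orange the 5′ arm and grey the 11 sequences under the minimum. The miR171b sequences widen from 3.08% and 1.48% in the control to 11.1% and 10.7% in the chilled library, while miR171n narrows from 18.98% to 8.32%.

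**Figure D4:**
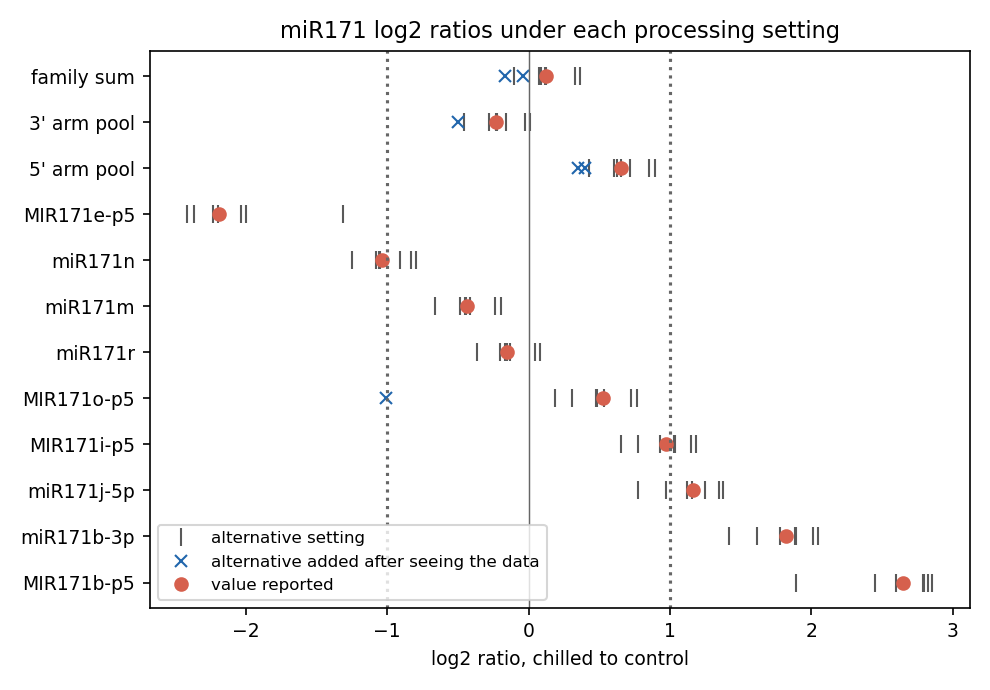
Log2 ratio of chilled to control for the family sum, the pool of each arm and each sequence above the minimum; red points are the values reported, ticks the values under other settings and crosses those of settings chosen after seeing the data. MIR171b-p5, miR171b-3p and MIR171e-p5 stay past the dotted lines at 1 and -1, and the cross of MIR171o-p5 is its other entry at -1.01.

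The degradome named 5 gene loci for miR171, and each is annotated as a GRAS family transcription factor. Of the 5 in the authors' deposited table, 4 carry the symbol HAM3 of the Arabidopsis gene, the class known as miR171 targets, and the fifth, Glyma.01G177200, has no symbol. A search of all 898 pairs for GRAS terms, among them SCARECROW-LIKE, DELLA and SHORT-ROOT, returned these 11 pairs and none of another family. No other family was listed at these loci. Since the family was taken up for these targets, the match is a description.

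The site with the firmest listing was in Glyma.03G031800, a HAM3 locus on chromosome 3. The authors' deposited table placed the cut at position 1728 of its first transcript and 1641 of its second, with an abundance of 190.0 TPB and category 0. TPB is a normalised abundance of reads at the cut site that the authors do not spell out. In the categories commonly used for degradomes, 0 marks a cut position with the most reads on its transcript and 4 a position with a single read; the sources used here do not say whether the authors used that scheme. The authors' deposited table gives this locus a p-value of 0.0112 with MIR171d-p3 and 0.0136 with miR171k-3p.

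The other loci were listed in weaker categories. In the authors' deposited table Glyma.01G079500, a HAM3 locus on chromosome 1, was cut at position 1809 with 244.2 TPB, category 2 and a p-value of 0.183 for MIR171d-p3. In the authors' deposited table Glyma.01G136300, also HAM3 and on chromosome 1, was cut at 1208 with 190.0 TPB, category 2 and a p-value of 0.477 for MIR171d-p3. Glyma.U013800, a HAM3 locus on an unplaced sequence, was cut at 1475 with 244.2 TPB, category 2 and a p-value of 0.360 for miR171k-3p, in the authors' deposited table. The TPB of these 3 sites was equal to that of the category 0 site or above it, and the authors' p-values were above 0.05. The signals can be set against category 4 of the authors' deposited table. The values 190.0 and 244.2 TPB are 2.33 and 3 times the highest TPB found in that category, 81.41, where the median was 13.57. Of all pairs, 20.6% lay above 3 times that highest value. A site of that category commonly has a single read. The median over all pairs of the authors' deposited table was 50.9 TPB, below each of these values. Glyma.01G177200 was listed for miR171k-3p alone, at position 710 with 81.41 TPB, category 4 and a p-value of 0.314 in the authors' deposited table.

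Category 0 or 1 held 4 of the 11 miR171 pairs, 36.4%, against 33.1% of all 898 pairs in the authors' deposited table. An authors' p-value under 0.05 was given to 4 of the 11, against 15.9% of all pairs in the authors' deposited table. Category 2 held 6 of the 11 and category 4 held 1, against 34.0% and 29.5% of all pairs in the authors' deposited table. All 4 in both counts, of category 0 or 1 and of low p-values, belong to 1 locus, Glyma.03G031800, as combinations of 2 transcripts and 2 sequences that share a cut site. By its highest TPB, 244.2, the family ranked 21 of 54 in the authors' deposited table, tied with others. In the same authors' deposited table the highest TPB was 733 for miR166, 3745 for miR160, 2279 for miR156 and 21899 for miR396. The median TPB was 189.95 for miR171, 97.7 for miR166, 1499 for miR160, 24.4 for miR156 and 50.9 for miR396 in the authors' deposited table. Category 0 held 77.1% of the miR166 pairs, all 12 miR160 pairs, 26.9% of the miR156 pairs and 56.9% of the miR396 pairs.

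**Figure D5:**
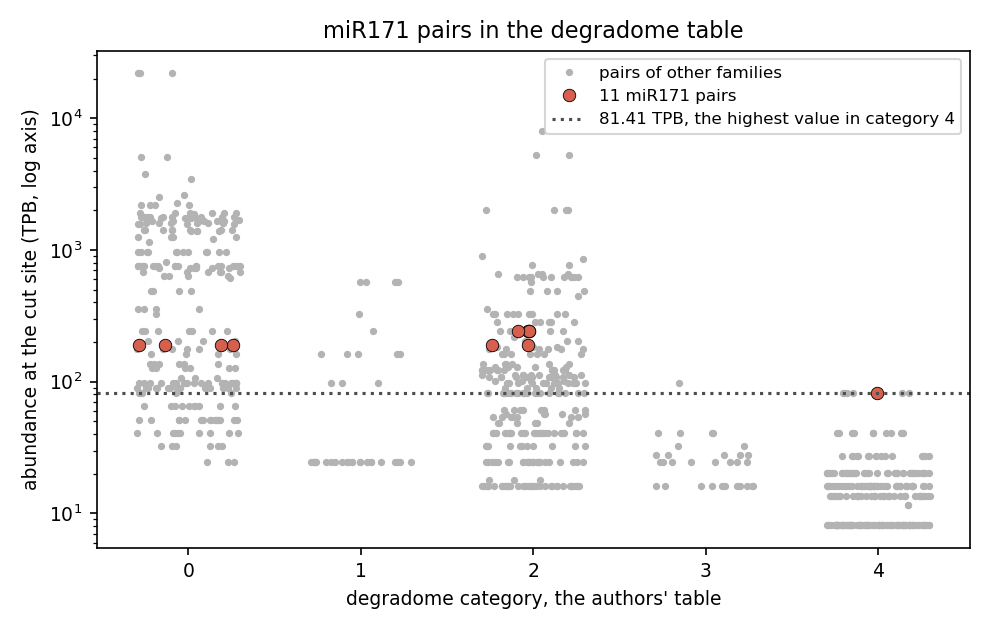
Abundance at the cut site (TPB, log axis) of every pair in the authors' deposited degradome table by category, with a random sideways shift within each category; red points are the 11 miR171 pairs and grey points those of all other families. The miR171 pairs lie between 81.41 and 244.2 TPB, with 4 of them in category 0, another 6 in category 2 and a single one in category 4.

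The sequences named in the degradome were not the abundant ones. The authors' deposited table lists MIR171d-p3 with 5 pairs and miR171k-3p with 6, and these strands together had 0.333 control reads and 1.33 chilled reads in the small RNA libraries. miR171m, which differs from MIR171d-p3 by C6T alone and had 63.8 and 55.6 reads, was not named there, nor were miR171n, miR171b-3p or miR171r. Both named sequences were listed on 5 transcripts in common, with the same cut position each time. At those 5 transcripts the cut can therefore not be assigned to one of these sequences over the other. Like miR171k-3p, miR171m and miR171n hold GAGCC at base 3, so the cut position does not tell them apart from it either. Their pairing with these transcripts was not examined, and their absence from the list does not show that they made no cut. The degradome was made from mixed leaves, so it gives no comparison of cutting between chilled and control leaves.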

How the data were processed

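Small RNA was sequenced from 1 control and 1 chilled library (TruSeq kit, per the labels' protocols) and a degradome from 1 library of both. The profile tables hold raw reads per the file headers; 339 of 587 entries hold fractions, so the deposited values were taken for estimated counts, also called expected counts, and rounded for scaling and intervals. The authors deposited with them the GC percent of each hairpin. The degradome table gives, per the file headers, a TPB signal, an alignment score, a category and a p-value as deposited. The sources used here name no aligner, caller or genome build.

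One entry was kept per distinct sequence, the one with most reads. Libraries were scaled over all 381 sequences with edgeR 4.0.16 (TMM, R 4.3.3), with a log2 offset of 0.25 between chilled and control. Ratio intervals are exact conditional binomial intervals at 95%. Scripts were tested on simulated data. Alternatives were DESeq2 1.42.0 size factors, table totals, unscaled reads, other minimums and pseudocounts, sums over entries, and other ways of counting degradome pairs. Sequences with 10 normalised reads in one library were named singly, and each locus by its lowest category, then lowest p-value, then first identifier. GRAS terms were matched as whole words, after a first search had also met the letters inside integrase. Members and lists were chosen with earlier results of these data known. Emptied lines, 6 in number, of the table of known miRNAs are not analysed here. The targets' sequences were not used here.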

Additional observations from a re-analysis of the deposited data

How the results depend on the processing

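Each count and ratio was recomputed under other scalings, minimums, pseudocounts and entry choices. By the limits set, 104 recomputed values stayed and 12 moved, but those limits let some signs and calls change. Counted as staying were the family sum at -0.10 with equal table totals against 0.12, and the 3′ arm at 0.01 with unscaled reads against -0.23. So were 2 or 4 sequences called higher against 3. The 3 sequences higher in the chilled library became 5 with no minimum and 0 with a minimum of 100, which no miR171 sequence reaches. The 2 lower became 1 with a table total without miR3522, with unscaled reads and with a pseudocount of 5, where miR171n lost its call, and 0 with a minimum of 100. miR171j-5p was no longer called with equal table totals or with a pseudocount of 5. The family sum was -0.17 without the miR171b sequences and -0.04 with the MIR171f-p5 entry, which alone gave -1.01; these alternatives were chosen after seeing the data. Counted as loci, 1 rather than 4 was in category 0 or 1. The 5 GRAS loci corresponded to 11 pairs, to 1 locus with an authors' p-value under 0.05 and to 1 in category 0. No paired analysis was possible because each condition has 1 library. Depth limits the family: 8 of 20 sequences had at most 3 reads in each library.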

Other observations

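At the 5 transcripts listed with both miR171 sequences, the alignment score in the authors' deposited table was lower, that is closer to full pairing, for miR171k-3p at all 5, with 1 against 3.5 for MIR171d-p3 in Glyma.03G031800 and Glyma.01G136300. The authors' p-value was nevertheless the lower for MIR171d-p3 at 4 of the 5 and for miR171k-3p at 1, in the authors' deposited table.

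The strand miR171e was listed at 9 hairpins with 4 different pairs of reads, from 3.79 to 6.74 in the control library. Added over the 9 entries it would hold 46.7 control and 68.2 chilled reads, which would place it among the more abundant members. The sources used here do not say whether an entry holds all reads of its sequence or a share.

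The GAGCC stretch outside miR171 was found in 6 sequences, the most abundant of which was miR160a-3p with 297.5 control and 471 chilled reads.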
